A study of Rattus norvegicus with 6 samples.

Results

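The catecholamine genes examined here are 9 genes of dopamine, noradrenaline and adrenaline synthesis, storage, reuptake and breakdown: Th, Ddc, Dbh, Pnmt, Gch1, Slc18a1, Slc18a2, Slc6a2 and Maoa. They were chosen by symbol, for their function, and every peak that the authors' annotated table assigns to them was taken. The table holds 159452 peaks assigned to 14390 genes, and 32 of these peaks belonged to 7 of the 9 genes. Dbh and Pnmt had no assigned peak. The study used rat PC12 cells, which derive from an adrenal medulla tumour (pheochromocytoma), at passages 18 to 20. One line, titled Q11, stably expresses human α1ACT, the transcription factor encoded within CACNA1A, and the other the empty pCDNA3 vector. The labels do not say whether either line is a clone. From each line chromatin was precipitated with the antibody labelled 1804 and with the anti-FLAG antibody M2, and an input was kept, which makes 6 libraries. The labels leave unsaid what 1804 recognises. The design text speaks of tissues at day 3, whereas every sample is labelled as PC12 cells.

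Catecholamines are made from tyrosine. Tyrosine hydroxylase (Th) makes L-DOPA with the cofactor tetrahydrobiopterin, whose synthesis starts with GTP cyclohydrolase (Gch1); aromatic L-amino acid decarboxylase (Ddc) makes dopamine, dopamine β-hydroxylase (Dbh) noradrenaline and phenylethanolamine N-methyltransferase (Pnmt) adrenaline. Vesicular monoamine transporters (Slc18a1 and Slc18a2, or VMAT1 and VMAT2) load the amines into granules, the noradrenaline transporter (Slc6a2) takes them back into the cell, and monoamine oxidase A (Maoa) breaks them down. PC12 cells are chromaffin-like and are known for making and storing dopamine and noradrenaline.

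The 4 peak lists differ widely in length, each comes from 1 library, and their read depth is unknown, so no value has a replicate error and no test between conditions was possible. The α1ACT 1804 list held 161730 peaks and the α1ACT M2 list 81, against 272 in the empty-vector 1804 list and 244 in the empty-vector M2 list. All 32 peaks described below come from the α1ACT 1804 list, were 56 bp wide and lie on build rn5. The name of the annotated table marks it as Q11 only. It lacks 2278 of the 161730 peaks of the α1ACT 1804 list. Whether these include peaks shared with the empty-vector line was not computed here. The signal is the authors' deposited value per peak, used here to rank peaks within the α1ACT 1804 list. Its scale between lists is not stated. The α1ACT 1804 list reaches down to a signal of 2.00 and the α1ACT M2 list to 53.6, against 14.0 for the empty-vector 1804 list and 19.0 for the empty-vector M2 list. The highest signal of a catecholamine gene peak was 8.79, below the lowest signal of each of the other lists as deposited. A difference between the lines at these genes and a difference in where the lists end cannot be told apart. The deposited −log10 q reached at most 3.89, a value held by 7.08% of annotated peaks and by 4 of the 32 peaks, 2 of Th and 2 of Gch1.

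The promoter windows of 4 of these genes are printed to set genes with a peak near the transcription start site (TSS), Th and Gch1, beside genes without one, Dbh and Slc18a2. They run from 250 bases before to 50 bases after the gene start in RefSeq on build GRCr8, in which 6 of the 9 genes had a window. The peak coordinates are on rn5 and were not carried over to them. By the authors' distances, the peak of Gch1 lies beyond the window. Capitals mark the cAMP response element TGACGTCA, the AP-1 element TGANTCA, the Egr element GCGNGGGCG and the Sp1 hexamer GGGCGG, searched on both strands. The windows are chr1:207508169-207508468 (minus strand) for Th, chr15:22917363-22917662 (minus) for Gch1, chr3:30886078-30886377 (plus) for Dbh and chr1:268399771-268400070 (plus) for Slc18a2.
Th: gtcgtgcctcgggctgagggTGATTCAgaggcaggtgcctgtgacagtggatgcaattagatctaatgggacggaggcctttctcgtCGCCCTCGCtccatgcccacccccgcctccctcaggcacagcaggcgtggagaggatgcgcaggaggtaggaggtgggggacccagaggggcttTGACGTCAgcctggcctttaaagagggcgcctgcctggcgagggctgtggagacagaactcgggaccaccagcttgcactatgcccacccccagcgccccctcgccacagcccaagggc
Gch1: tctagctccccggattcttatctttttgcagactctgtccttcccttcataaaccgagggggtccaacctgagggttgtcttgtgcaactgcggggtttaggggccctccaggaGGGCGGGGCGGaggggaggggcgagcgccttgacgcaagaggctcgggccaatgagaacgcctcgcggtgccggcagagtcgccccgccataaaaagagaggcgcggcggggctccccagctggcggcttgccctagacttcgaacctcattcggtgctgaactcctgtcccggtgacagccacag
Dbh: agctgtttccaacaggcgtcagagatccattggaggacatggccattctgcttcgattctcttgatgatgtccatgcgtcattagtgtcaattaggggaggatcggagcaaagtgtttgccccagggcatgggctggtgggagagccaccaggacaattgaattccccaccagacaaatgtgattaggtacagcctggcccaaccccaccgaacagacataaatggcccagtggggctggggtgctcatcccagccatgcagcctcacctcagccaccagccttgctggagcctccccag
Slc18a2: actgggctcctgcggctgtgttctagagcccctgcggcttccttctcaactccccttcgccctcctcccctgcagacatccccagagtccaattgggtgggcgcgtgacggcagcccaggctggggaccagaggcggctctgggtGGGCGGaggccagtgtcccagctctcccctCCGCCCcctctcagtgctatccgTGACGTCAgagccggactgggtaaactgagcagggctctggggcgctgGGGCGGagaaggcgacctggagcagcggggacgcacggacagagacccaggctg

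The window of Th held a cAMP response element 69 to 62 bases before the gene start, an AP-1 element and an Egr element. Slc18a2, which had no peak near its TSS, held the same cAMP response element 52 to 45 bases before the gene start. That element occurred in 2 of the 6 windows and in 1.83% of all 33469 RefSeq promoter windows. The AP-1 element was in the windows of Th and Ddc (7.33% of all windows) and the Egr element in that of Th alone (4.98%). The Sp1 hexamer was in those of Gch1, Slc18a2 and Maoa (33.1%). The shorter core TGACG, which the full element contains, was in all of these windows but that of Ddc (21.2% of all). The window of Gch1 also held the E-box CAGCTG (15.1% of all). That of Ddc held the TATA sequence TATAAA (14.2%) only on the strand opposite to the gene, 68 to 63 bases before the gene start. The E-box CACGTG (6.42%), the homeodomain core TAATTA (5.36%) and the AT-rich hexamer TTATAA (5.92%) were in none of the 6. The window of Dbh held none of the 4 elements marked in capitals.

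Th, Gch1 and Maoa each had 1 peak within 1000 bp of the TSS. These 3 of 9 genes are a share near the background, since 32.9% of 18539 protein-coding genes, and 44% of the 13854 of them with an assigned peak, had such a peak. Any assigned peak was found for 7 of the 9 genes, against 74.7% of all genes. Within 3000 bp Slc18a1 was added, giving 4 of 9 genes, against 39.6% of all genes. A peak near the TSS in the upper 10% by signal belonged to Th and Gch1, 2 of 9 genes, against 15.1% of all genes. An assigned peak in the upper 10% at any distance belonged to Th, Gch1 and Slc18a1, 3 of 9 genes, against 37.7%.

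**Figure D1:**
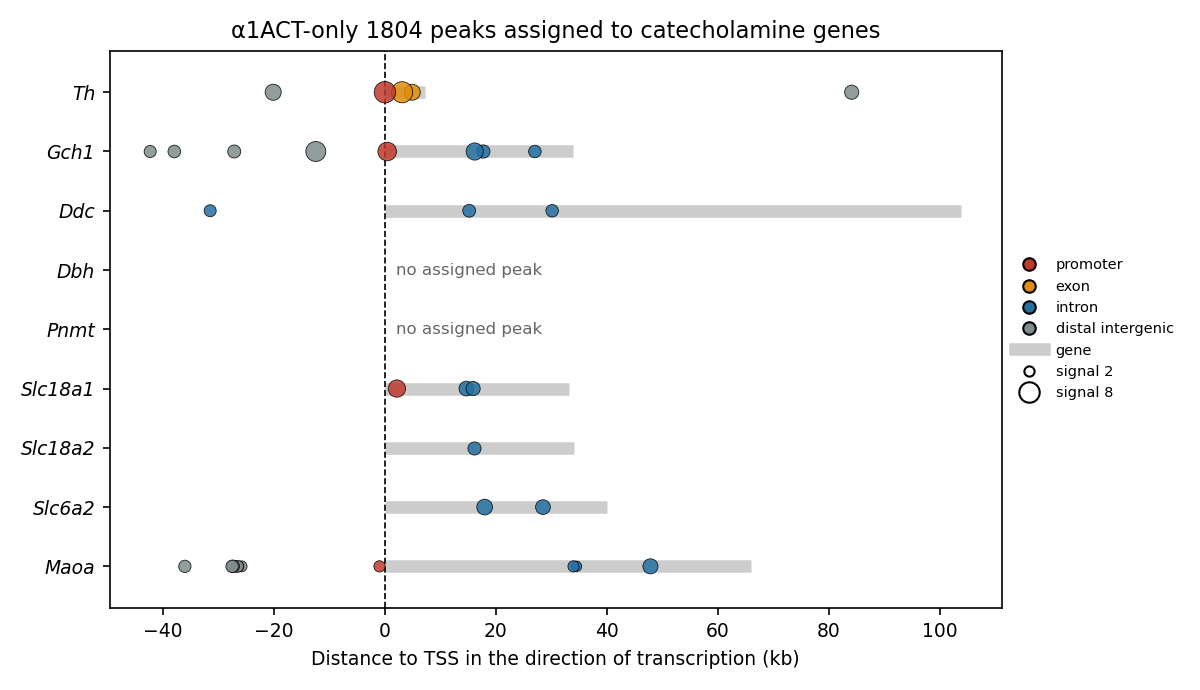
Position of the 32 peaks assigned to catecholamine genes in the α1ACT 1804 list, 1 row per gene, with the signed distance to the TSS in kb on the horizontal axis; circle area is proportional to the deposited signal, colour gives the annotated place and the grey bar the gene (for Ddc its longest transcript, while 2 of its peaks are measured from a TSS inside that bar). Red marks the promoter class: Th, Gch1 and Maoa have a red circle within 1000 bp of the TSS and Slc18a1 has 1 at 2177 bp. The rows of Dbh and Pnmt hold no circle.

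Th, the rate-limiting enzyme of the pathway, had the peaks of highest signal. It spans 7.25 kb of the minus strand of chromosome 1, from 222935462 to 222942715. Its highest peak began 29 bp downstream of the TSS, at 222942631 to 222942686, and its signal was 8.79. Of the annotated peaks 98.7% had a lower signal, as did 90.8% of the 9175 peaks within 1000 bp of a TSS. By its highest peak near the TSS, Th ranked 804 of the 6219 genes that had one. Further peaks lay in exon 3 of 13, 3122 bp downstream at 222939538 to 222939593 with a signal of 8.58, and in exon 9 of 13, 4940 bp downstream at 222937720 to 222937775 with a signal of 4.92. Thus 3 of the 5 Th peaks lay within the short gene, and the exon 3 peak reached almost the signal of the TSS peak. The remaining peaks were intergenic, 20.1 kb upstream with a signal of 4.98 and 84.1 kb downstream with a signal of 3.86. All 5 lay above 3.02, the median signal of the annotated table.

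Gch1, the enzyme of the cofactor's synthesis, had 8 peaks and the next highest signals. The gene lies on the minus strand of chromosome 15, from 27876253 to 27910213. Its peak near the TSS, 433 bp downstream at 27909725 to 27909780, had a signal of 6.63, above 95.8% of the annotated peaks, and ranked Gch1 1779 of 6219 genes. Its highest peak was not that one. It lay 12.4 kb upstream, in intergenic sequence at 27922639 to 27922694, with a signal of 7.64, above 97.6% of the annotated peaks. In intron 1, a peak at 27893956 to 27894011 had a signal of 5.66 and its neighbour at 27892404 to 27892459 a signal of 3.36. The other 4 peaks, in intron 3 and between 27.1 kb and 42.3 kb upstream, had signals of 2.80 to 3.26. Of the 8 peaks, 3 were in the upper 10% of the table by signal.

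Ddc, which makes dopamine from L-DOPA, had 3 peaks of low signal and none near a TSS. The rat gene is known to have alternative first exons, and the table measures its peaks from 2 start sites. Peaks in the gene, on chromosome 14 at 91763243 to 91763298 and at 91748297 to 91748352, lay 15.2 kb and 30.1 kb downstream of the TSS, with signals of 3.18 and 2.99. The remaining peak, 31.5 kb upstream at 91825154 to 91825209 with a signal of 2.78, lay in an intron of the neighbouring gene Grb10, an adaptor of growth factor receptors. All 3 were close to the table's median, between 36.7% and 53.0% of annotated peaks being lower.

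Dbh and Pnmt, the enzymes of noradrenaline and adrenaline synthesis, had no assigned peak in the table. Their rn5 coordinates are not used here, so their place was taken from the order of genes on GRCr8. Dbh lies there between Fam163b and Sardh, the gene of sarcosine dehydrogenase, and the stretch between these on rn5, chromosome 3 from 11054773 to 11101703, is 46.9 kb long. It held 0 peaks of the α1ACT 1804 list and 0 of each of the other 3 lists. The nearest annotated peak lay 4.63 kb outside it, in an intron of Fam163b with a signal of 2.63, and on the other side the nearest lay 32.1 kb away in Sardh with a signal of 3.00. Pnmt is flanked by Stard3 and Pgap3, apart from 1 other gene in between that the table does not hold, and the stretch of 5.97 kb, chromosome 10 from 86133025 to 86138992, held 0 peaks of all 4 lists. Stard3, a cholesterol-binding protein gene, had 2 peaks at its own TSS, with signals of 8.91 and 7.42, and Pgap3, which acts on the anchor of membrane proteins, had 1 with a signal of 2.61. Both genes flanking the Pnmt stretch carried peaks at their start. How often stretches of these lengths hold no peak was not computed, and the other 3 lists leave most loci without one. The empty stretches, above all the short one of Pnmt, therefore say little about these genes. The placement of Dbh and Pnmt rests on the gene order being the same on both builds.

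The vesicular transporters differed in their peaks. Slc18a1, the form typical of chromaffin cells, had 3 peaks on chromosome 16, all within the gene (22256523 to 22289704, plus strand). The highest lay 2177 bp downstream of the TSS at 22258645 to 22258700, in the authors' promoter class, with a signal of 5.74, above 92.8% of the annotated peaks. The other peaks lay in intron 8 of 15, at 14.7 kb and 15.9 kb from the TSS, with signals of 4.19 and 3.87. Slc18a2, the form typical of monoamine neurons, had a single peak, in intron 10 of 15 on chromosome 1 at 287799633 to 287799688, 16.1 kb downstream of its TSS. Its signal of 3.30 was above 60.1% of the annotated peaks. Within 100 kb of the Slc18a2 TSS lay 10 peaks, of which 9 were assigned to other genes; for Slc18a1 the numbers were 8 and 5.

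Slc6a2, which takes noradrenaline up from outside the cell, had 2 peaks, both within the gene on chromosome 19 (26487820 to 26527769, minus strand). The peak at 26509732 to 26509787 lay 18.0 kb from the TSS, in intron 4, with a signal of 4.73, above 85.7% of the annotated peaks. The peak at 26499226 to 26499281 lay 28.5 kb from the TSS, in intron 6, with a signal of 4.17. No other annotated peak lay within 100 kb of its TSS.

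Maoa, the breakdown enzyme of the outer mitochondrial membrane, had the most peaks, 10, and 9 of them lay below the median signal. It lies on the minus strand of the X chromosome, from 7373101 to 7439125. The peak near the TSS, at 7440073 to 7440128, lay 948 bp upstream, just inside the limit of 1000 bp. Its signal of 2.45 was above 23.4% of the annotated peaks, and Maoa ranked 5739 of 6219 genes by it. The highest Maoa peak, at 7391217 to 7391272 in intron 5 with a signal of 4.37, was its only 1 above the median. Between 25.8 kb and 27.5 kb upstream, 5 peaks lay within 1.76 kb, with signals of 2.03 to 2.98. A single peak 36.0 kb upstream had 2.90, and a pair in intron 3, at 7405076 to 7405131 and 7404535 to 7404590, had 2.39 and 2.05. No other gene had an assigned peak within 100 kb of the Maoa TSS.

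**Figure D2:**
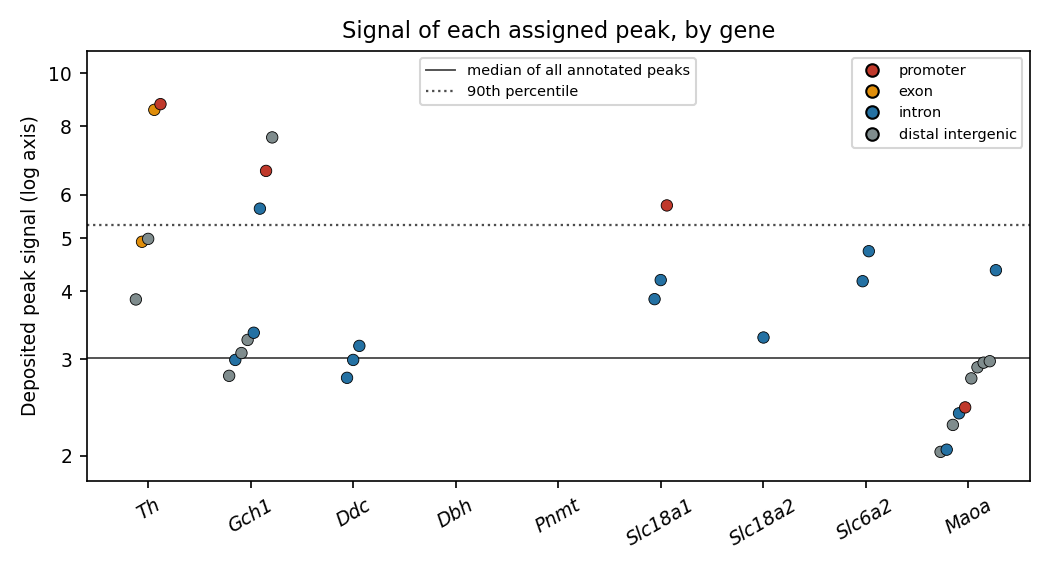
Deposited signal of each of the 32 assigned peaks on a log axis, by gene and coloured by annotated place, with the median (solid line) and the 90th percentile (dotted line) of all 159452 annotated peaks. Peaks of Th, Gch1 and Slc18a1 lie above the dotted line at 5.28, and 9 of the 10 Maoa peaks lie below the solid line at 3.02.

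Across the 9 genes, the peaks were nearer to genes than those of the whole table. Of the 32, 12 (37.5%) were distal intergenic, against 74.6% of annotated peaks, and 6 of these 12 belonged to Maoa. Introns held 14 (43.8%), against 16.2%, promoters 4 (12.5%), against 7.65%, and exons 2 (6.25%), against 0.914%. Both exon peaks were in Th. The median distance to the TSS was 26051 bp, against 119026 bp in the table, and the farthest peak was 84.1 kb away. The table's figures are dominated by peaks far from any gene, and neighbouring peaks are not independent, so these shares are a description without a test. The median signal was 3.28, against 3.02, and 6 of the 32 peaks (18.8%) were in the upper 10% of the table by signal: 3 of Gch1, 2 of Th and 1 of Slc18a1. The 7 genes had a median of 3 peaks, and all genes of the table a median of 4.

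**Figure D3:**
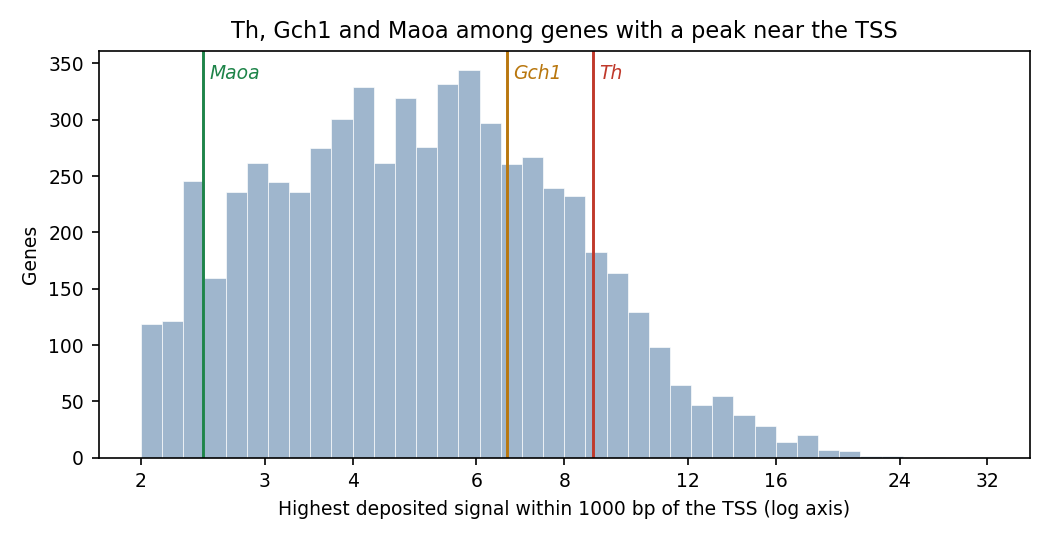
Histogram of the highest deposited signal within 1000 bp of the TSS (log axis) over the 6219 genes that had such a peak, with vertical lines at Th, Gch1 and Maoa. Th at 8.79 and Gch1 at 6.63 lie to the right of the middle of the distribution, and Maoa at 2.45 near its left end.

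None of the 32 peaks overlapped a peak of the other 3 lists, and none of those lists had a peak within 100 kb of the TSS of the 7 genes. The nearest α1ACT M2 peak was 2.08 Mb from a TSS, that of Slc18a2, and chromosomes 15 and X, which hold Gch1 and Maoa, had none. The closest empty-vector peak lay 638 kb from the TSS of Slc18a1, in the 1804 and the M2 list alike. The empty-vector 1804 list also had a peak 965 kb from the TSS of Maoa. Lists of 81 to 272 peaks over the genome leave most loci without a nearby peak and can overlap only a few of 159452 peaks. The share of all annotated peaks without an overlap was not computed. Had shared peaks been left out of the annotated table, the lack of overlap with the empty-vector lists was fixed in advance. The missing overlaps and these distances therefore say little about the catecholamine genes.

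The closest gene by TSS was taken from the annotated table, so it had an assigned peak in every case. Of these 7 neighbours 5 had a peak within 1000 bp of their own TSS, beside 44% of all protein-coding genes with an assigned peak. This is a description of 7 genes, without a test. Atp6v1b2, a subunit of the proton pump that drives vesicular amine uptake, starts 11.9 kb from Slc18a1 and had 2 peaks near its TSS, the higher with a signal of 3.86. Ddc had none near a TSS, whereas Fignl1 beside it had 1 with a signal of 6.02. Wdhd1, beside Gch1, had 1 with 2.41, Kcnk18, beside Slc18a2, 1 with 2.21, and Mmp2, beside Slc6a2, 1 with 2.34. Ascl2, beside Th, and Ndp, beside Maoa, had none. These neighbours start between 39.3 kb and 152 kb away, apart from Atp6v1b2.

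Other genes of the pathway, in 7 lists by role, had a peak within 1000 bp of the TSS in 31 of 72, or 43.1%, beside 32.9% of all protein-coding genes. Regulators of tyrosine hydroxylase held 13 of the 31, from a list of 18 (72.2%). Most of these kinases, phosphatase subunits and 14-3-3 proteins serve many pathways. The other lists had shares of 12.5% to 50%, on both sides of 32.9%, so the total leans on the regulators. Among the regulators, the highest were Camk2d, a calcium/calmodulin-dependent kinase subunit, with a signal of 11.6, and Ywhah, a 14-3-3 protein, with 10.7. Among breakdown genes, 1 of 8 had such a peak. Maob, the sister enzyme of Maoa, had 4 peaks and none nearer than 19244 bp. The tetrahydrobiopterin genes counted 3 of 7, with the highest signals at Pcbd1, which recycles the cofactor (5.95), and Pts, which acts in its synthesis (5.31). Gchfr, which encodes a feedback regulator of the Gch1 enzyme, had none nearer than 6854 bp.

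Transporters of amines or their precursors had 4 of 9, led by the amino acid transporter Slc7a8 with 22.8 and Slc3a2, the heavy chain of such transporters, with 9.68. Slc6a3, the dopamine transporter, had none nearer than 2851 bp. Vesicle cofactor and copper genes had 4 of 8, led by the vitamin C transporter Slc23a2 with 6.85 and Atp6v1b2 with 3.86. Adrenergic and dopamine receptors had 4 of 14, among them the dopamine receptor gene Drd5 with 2.98. Other aromatic amine genes had 2 of 8, the serotonergic factor Fev with 6.01 and the melatonin enzyme Asmt with 3.99. A peak is not a measure of expression, so the cell type label could not be checked against RNA. Of chromaffin and sympathetic markers 6 of 10 had a peak near the TSS, Phox2a (9.74) and Chga (9.26) above Th, whereas Dbh did not. Th and Dbh, which are among the genes examined, were placed in this list. Th also acts in dopamine synthesis but was not placed in the dopaminergic list, so the marker shares depend partly on how the lists were made. Adrenal cortex markers had 0 of 7, dopaminergic neuron markers 0 of 5, serotonergic neuron markers 1 of 3 and Schwann cell markers 2 of 4, beside 32.9% of all genes. The zeros depend on the distance limit. Within 3000 bp adrenal cortex markers had 3 of 7 and dopaminergic neuron markers 2 of 5, beside 39.6% of all genes, and the other marker counts were as within 1000 bp.

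**Figure D4:**
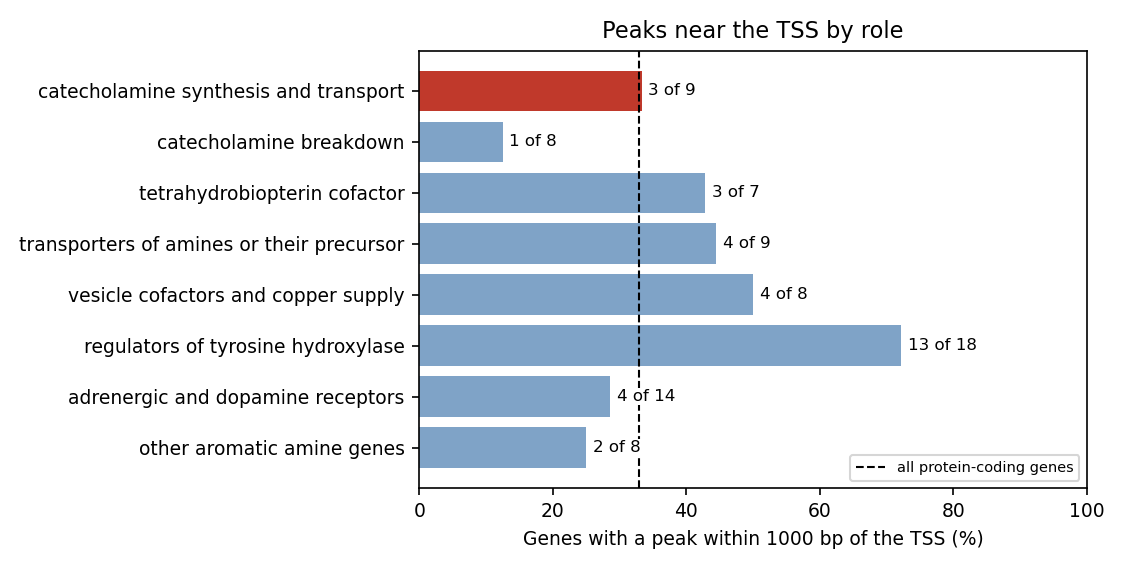
Share of genes with a peak within 1000 bp of the TSS (%, horizontal axis) for the 9 catecholamine genes (top bar) and the 7 lists of other pathway genes, with the counts beside the bars; the dashed line marks 32.9%, the share of all protein-coding genes. The top bar, at 3 of 9, ends at the dashed line, and the longest bar is that of the tyrosine hydroxylase regulators, at 13 of 18.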

How the data were processed

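Peak lists of 4 ChIP-seq libraries and 1 annotated table were used; the 2 inputs were not analysed here. Cells were crosslinked with 1% formaldehyde for 10 min, per the labels' protocols. Tools named in the submitters' processing notes, with no role, are BWA 0.7.5a, FastQC 0.11.2, HOMER, ChIPseeker and DiffBind, and the build is rn5. Peak caller settings and the use of inputs were not given in the sources used here. Deposited peak lists give the authors' signal per peak and a −log10 q-value per peak. Read depth is unknown.

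Table rows were joined to the α1ACT 1804 list by chromosome and start, and all 159452 matched. Near a TSS means within 1000 bp by the authors' distance, which ran to the peak's far edge for plus-strand genes and to its near edge for minus-strand genes. The authors' intron numbers rose with distance from the TSS in all 818 plus-strand transcripts that could be compared and in 0 of 824 minus-strand ones. Introns of minus-strand genes are therefore counted here from the 5′ end. The background was 18539 protein-coding RefSeq genes with a curated transcript (GRCr8, used for names and gene order); all 72 pathway symbols matched. Counting steps were run in Python 3.11.15 with pandas 2.3.3 and tested on simulated peaks. The genes named were the 9 members, in each pathway role the 2 with the highest signal near the TSS, and the closest gene; Maob, Gchfr, Slc6a3, Fam163b, Sardh, Stard3, Pgap3, Grb10, Phox2a and Chga were added after their values were seen. Some genes that this rule names are not reported here. Members and lists were chosen with earlier results of these data known. Alternatives were other TSS distances, stricter signal and q limits, unassigned peaks, merged peaks and other windows.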

Additional observations from a re-analysis of the deposited data

How the results depend on the processing

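The number of catecholamine genes with a peak near the TSS was 3, and it was 4 within 3000 bp, 2 within 500 bp, where Maoa was lost (29.3% of all genes), 2 with the upper 50% of peaks by signal (26.9%), and again 2 with the upper 10%. It was 3 with a −log10 q of at least 2 (31.0%) and 7 when any assigned peak counted. With every peak of the list counted around the TSS it was also 3. That count used only start sites of genes with an assigned peak, so Dbh and Pnmt could not enter it. Merging peaks at gaps of up to 200 bp does not change which genes have a peak, so it could not test the gene counts. Both limits hold for the pathway genes as well. The pathway count of 31 of 72 genes, beside 32.9% of all genes, was 25 to 34 under the other distances, the upper 50%, the q limit and all peaks. It was 62 when any assigned peak counted, against 74.7% of all genes. With the upper 10% of peaks by signal it was 17, against 15.1% of all genes. The 32 assigned peaks were 28 at the q limit and 30 when merged, but 19 at or above the median signal and 6 with the upper 10%. Of the 7 genes with an assigned peak, 0 had a peak of another list within 10 kb or 100 kb of the TSS and 2 within 1 Mb. No overlap with another list appeared when a gap of 1000 bp was allowed, which has the limits given above for overlaps. No paired analysis was possible because each group holds 1 library. Without replicates or depth, peaks missing from a list cannot be told apart from peaks below its limit.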

Other observations

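Slc29a4, the plasma membrane monoamine transporter gene, was assigned 10 peaks, none near its TSS. A single peak on chromosome 12 from 15973403 to 15973458, at a distance of -20844 bp to the TSS (upstream), had a signal of 39.3 and ranked 9 among all 159452 annotated peaks. The gene was singled out after its values were seen.

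Many peaks share identical signal values. The table holds 27771 distinct values (to 6 decimals) for 159452 peaks, and 57.6% of peaks carry a value that occurs in 100 or more peaks, as do 17 of the 32 catecholamine gene peaks. The value 2.99 of a Ddc and a Gch1 intron peak occurs in 1223 peaks, and the value 3.86 of the most distant Th peak in 946.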
